A study of Homo sapiens with 30 samples.

Results

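The cytosolic ribosomal protein genes were taken as the symbols of the RPL and RPS families, with RPLP0, RPLP1, RPLP2 and RPSA, that were present in the expression tables of both glioblastoma cell lines, without pseudogenes and without the S6 kinases. 84 of the 61471 symbols in each table carried such a name, and 82 of them, the members, reached a mean of 10 TPM (transcript abundance per length, scaled to the same sum in each library) in at least 1 line. Of the members, 50 encode proteins of the large (60S) subunit or their close paralogs and 32 encode proteins of the small (40S) subunit or their paralogs. The 2 symbols left out were RPL3L, with a mean of 1.33 TPM in U87 and 0.622 in U251, and RPL10L, with 0.0681 and 0.0240. The lowest member was RPL39L, at 59.7 and 52.9 TPM, so that a wide gap separated the genes on either side of the minimum.

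The ribosome translates every messenger RNA of the cell. Its small subunit reads the message and its large subunit joins the amino acids, and the proteins named here clothe the ribosomal RNA of each. Most vertebrate ribosomal protein mRNAs start with a run of pyrimidines that follows a C at the first base, the 5′ terminal oligopyrimidine (TOP) element, through which the mTOR pathway controls their translation. Translation factors such as EEF1A1 and EEF2 share the element. Interferon-γ (IFN-γ) signals through JAK1 and JAK2, and in myeloid cells it releases RPL13A from the ribosome into the GAIT complex, which silences the translation of inflammatory mRNAs.

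U87 and U251 are established human glioblastoma lines, both labelled WT (no engineered change), and the study notes that neither was re-authenticated after receipt. RNA was sequenced in 30 libraries, 3 for each line and group, which the study describes as separate biological replicates. The groups were Untreated cells, collected at day 3 per the labels, cells given IFN-γ for 3 days (D3), for 14 days (D14) or for 28 days (D28), and cells given IFN-γ for 14 days and then kept for 14 days without it (D28WO). The study's methods instead have the Untreated cells collected when treatment began. No untreated culture of day 14 or 28 was analysed here, so time in culture and time in IFN-γ cannot be told apart for D14, D28 and D28WO, nor for D3 if the methods hold. The labels give a dose of 1 µg/mL in the protocol, whereas the study's methods give another concentration, and the dose is therefore uncertain.

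28 libraries were used. 2 columns of the U87 table share a header and could not be assigned, which left 2 libraries each in D3 and D14 of U87. The 2 lines stand in separately normalized tables, and no test was run between them. TPM keep no depth: each column sums to 1000000, and the number of reads behind a value is unknown. The distribution was flat, the 100 highest genes holding 5.96% to 7.76% of the TPM in the U87 libraries, and Untreated U87 libraries had fewer genes above 0 (24223 to 25459) than the other U87 libraries (26096 to 28649). The mean share of the 100 highest was 7.41% in Untreated U87 and 6.13% to 6.60% in its other groups. The mean TPM of olfactory receptor genes was 0.068 in Untreated, 0.138 at D3, 0.093 in D14, 0.123 at D28 and 0.139 in D28WO of U87. In U251 it was 0.092, 0.146, 0.121, 0.156 and 0.097. The part of these values in the results was not tested. In U251 the number of genes above 0 was 24450 to 27187 in Untreated, 26475 to 28365 at D3, 27763 to 29771 in D14, 28955 to 30246 at D28 and 25633 to 26378 in D28WO, so that D14 and D28 lay above Untreated and D3 and D28WO overlapped it. Of 8 glial and glioma markers, VIM, CD44, EGFR and NES were above 19 TPM in every library of both lines. GFAP (222 to 1309 TPM), SOX2 (105 to 176) and S100B (31.7 to 199) were high in U251 and at 2.33 to 19.1, 0 to 0.411 and 0.387 to 3.39 TPM in U87, whereas OLIG2 was 3.51 to 31.98 TPM in U87 and 0 to 1.33 in U251. Among immune markers CSF1R was 11.2 to 59.99 TPM in U87 and at most 4.08 in U251, CD14 reached 5.75 TPM in U251, and PTPRC and CD3E stayed below 1.5 TPM. Each comparison below was tested with limma on log2(TPM + 1) over all genes of the line, and a gene was called at a Benjamini-Hochberg adjusted p under 0.05. Fold changes are on that log2 scale. No member passed a stricter rule that also asks for an absolute log2 fold change over 1 in any of the 7 comparisons of a line, when 0.209% to 12.8% of all genes did in a given direction. In bulk RNA, fewer cells of a kind and less RNA per cell cannot be told apart.

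Targets of IFN-γ went against the labels of D14 and D28WO in U87 and in part in U251. Of 9 such genes, chosen after their values were seen (IRF1, GBP1, IDO1, CXCL9, CXCL10, CIITA, PSMB8, PSMB9 and CD274), all 9 lay above every Untreated library at D3 and D28 of both lines. In the U87 libraries labelled D14, which by the label were still in IFN-γ, none of the 9 did. IDO1 was listed at 0, as against 81.3 to 85.9 TPM at D3, and GBP1 was 31.7 to 36.6 TPM, as against 31.3 to 39.6 in Untreated and 209 to 240.2 at D3. In the U87 libraries labelled D28WO, from which IFN-γ had been withdrawn by the label, all 9 were above Untreated, IDO1 at 135 to 137 TPM and GBP1 at 213 to 232 TPM, as against 95.5 to 130.4 and 244 to 256 TPM at D28, so that IDO1 was above and GBP1 below the D28 libraries. CIITA was also above D28, and the other 6 overlapped it. In U251, 8 of 9 were above Untreated in the libraries labelled D14 and all 9 in those labelled D28WO, yet all 9 were lower in the former than in the latter, without overlap. Against D28, the U251 libraries labelled D28WO were lower for 5 of the 9, as withdrawal would have it (CXCL9 14.2 to 18.2 TPM against 174 to 203, CXCL10 80.5 to 101 against 492 to 521, IDO1 299 to 304 against 389 to 411, and CIITA and CD274). They were higher for PSMB8 and PSMB9 and overlapped for IRF1 and GBP1, the latter at 460.1 to 471 TPM against 456 to 501 at D28 and 141 to 156 in D14. D14 and D28WO are therefore used here as names of labels, not of a treatment that the targets bear out in both lines, and no direction over time or after withdrawal is drawn from them. A gene said to have risen or fallen in D14 or D28WO was called higher or lower than in Untreated, and no more is meant. The comparisons of D3 and D28 with Untreated do not use them except for the shared estimate of the spread, and are also given without them.

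The start of the mRNA is where these genes differ from most others. Of the 82 members, 66 had an entry in RefSeq (GRCh38.p14), and in 54 of these (81.8%) a C followed by 4 or more C or T began within 5 bases of the annotated start, against 25.2% of the 27305 genes with an entry. Counted only where the annotated first base was itself a C followed by 4 or more C or T, the share was 71.2% against 5.14%. Within 300 bases (250 before the start and 50 after), CCGGAA, the core of the ETS and GABP sites, stood in 57.6% of the members and in 20.1% of all genes on either strand. TTCNNNGAA, the gamma-activated site, stood in 2 of the 66 members (3.03%) and in 9.38% of all genes, and the interferon-stimulated response element, read as GAAA on both sides of any 2 bases, in 4 (6.06%) and 4.38%. A match is a description of letters, not a bound site.

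The 30 bases around the annotated start are printed here for 4 parents and 4 paralogs that the results turn on, for RPS28 and RPL7A, which had among the lowest values in U251, and for RPS26, which differed between the lines. Each is read 5′ to 3′ from the reference, with 15 bases before the start and 15 from the start on, and capitals mark the pyrimidine run, counted from the first C within 5 bases of the start, where 1 was found.
RPS27 (chr1:153990747-153990776, plus strand): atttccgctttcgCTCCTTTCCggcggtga
RPS27L (chr15:63157463-63157492, minus strand): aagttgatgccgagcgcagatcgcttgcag
RPL26 (chr17:8383179-8383208, minus strand): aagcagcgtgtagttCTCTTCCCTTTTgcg
RPL26L1 (chr5:172958714-172958743, plus strand): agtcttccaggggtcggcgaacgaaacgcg
RPL22 (chr1:6199581-6199610, minus strand): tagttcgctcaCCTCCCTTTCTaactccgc
RPL22L1 (chr3:170870181-170870210, minus strand): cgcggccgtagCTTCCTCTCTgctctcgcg
RPL39 (chrX:119791616-119791645, minus strand): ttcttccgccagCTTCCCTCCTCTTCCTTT
RPL7L1 (chr6:42879601-42879630, plus strand): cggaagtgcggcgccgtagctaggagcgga
RPS28 (chr19:8321481-8321510, plus strand): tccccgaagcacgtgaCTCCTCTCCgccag
RPL7A (chr9:133348203-133348232, plus strand): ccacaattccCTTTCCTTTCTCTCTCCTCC
RPS26 (chr12:56041903-56041932, plus strand): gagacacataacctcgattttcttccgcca

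RPS27, RPL26, RPL22 and RPL39, the parents, carried runs of 9 to 22 bases. The runs of RPL39 (22 bases) and RPL7A (21) go on past the end of the printed bases. In RPL7A more pyrimidines stand before the capitals, so that its run is longer than counted, and in RPL26 T bases do. Of the 4 paralogs shown, RPL22L1 carried a run of 10, and RPS27L, RPL26L1 and RPL7L1 had none at the annotated start. The other members with an entry and no run were RPL15, RPL17, RPL27, RPL6, RPL9, RPS15, RPS26, RPS29 and RPS4X.

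Levels of the members spanned more than an order of magnitude in TPM, which are per length. In U87 the median of the 82 means was 419 TPM and the highest was RPL41, the smallest protein of the large subunit, at 1049 TPM. The U251 median was 350 TPM, and RPL26, which lies near the exit of the nascent chain, stood highest at 715 TPM. The 3 lowest members of U87 were the paralogs RPL39L (59.7 TPM), RPL7L1 (91.4 TPM) and RPL26L1 (125 TPM), and RPS29 was the lowest of the small subunit (145 TPM in U87 and 119 in U251). Together the large-subunit members held 2.54% ± 0.209 (SD, n = 3) of all TPM in Untreated U87 and 2.17% ± 0.084 (SD, n = 3) in Untreated U251. The small-subunit members held 1.53% ± 0.114 (SD, n = 3) and 1.33% ± 0.055 (SD, n = 3).

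The summed share of the members was lower in each of D3, D14, D28 and D28WO than in Untreated cells of the same line. In U87 the 3 Untreated libraries had 4.24%, 3.71% and 4.29% of their TPM in the members. The D3 libraries had 3.20% and 3.04%, the D14 libraries 3.58% and 3.40%, and D28 ran from 3.09% to 3.27%. D28WO ran from 2.87% to 3.10%, overlapping D3 and D28. No library of these 4 groups reached the lowest Untreated library.

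In U251 the Untreated libraries had 3.38% to 3.65%, D3 had 2.73% to 2.95%, D14 2.83% to 2.88% and D28 2.50% to 2.57%, without overlap with Untreated. Here D28WO stood between D28 and Untreated, at 2.93% to 3.06%, above every D28 library. The ratio of the large to the small subunit moved little: it lay between 1.64 and 1.72 in all U87 libraries and between 1.60 and 1.66 in all U251 libraries, so that both subunits shared the pattern. The share of mitochondrially encoded transcripts varied as well, from 0.369% to 0.911% of TPM over all libraries, and leaving those genes out of the total moved no group mean by more than its SD.

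**Figure D1:**
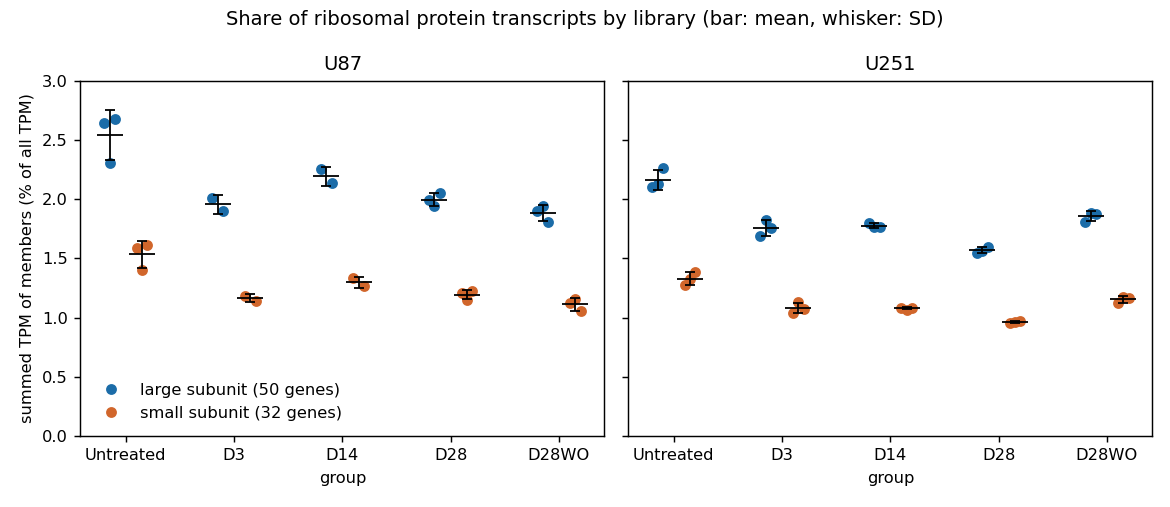
Summed TPM of the large-subunit members (blue) and the small-subunit members (orange) as a percentage of all TPM, 1 point per library, with the mean and SD of each group. In U87 the large-subunit share is 2.30% to 2.68% in Untreated and 1.81% to 1.94% in the libraries labelled D28WO, while in U251 it is 2.11% to 2.26% in Untreated, 1.55% to 1.60% in D28 and 1.81% to 1.88% in D28WO.

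The first comparison asked which members differed after 3 days of IFN-γ. In U87, 67 of the 82 members fell and none rose, by limma with Benjamini-Hochberg adjustment, when 4.28% of all 22918 genes tested were lower and 12.4% were higher. At an unadjusted p under 0.05, limma found 0 members higher in any of the 4 comparisons of U87 with Untreated. The median log2 fold change of the members was -0.37 (SD among members 0.10), against 0.20 over all genes tested and -0.13 over the 3043 other genes with a mean of 100 TPM or more. All 82 had a negative value, from -0.56 in RPL23, which binds MDM2 outside the ribosome, to -0.09 in RPL39L. RPL23 stood at 736, 683 and 738 TPM in the Untreated libraries and at 502 and 472 TPM at D3, a change of -0.56 ± 0.08 (SE, adjusted p = 0.0012). The 2 D3 libraries lay well below the 3 Untreated ones. RPS3, which sits at the mRNA entry of the small subunit and also acts in DNA repair, changed by -0.52 ± 0.06 (SE, adjusted p = 0.00029). The count rests on few libraries and on the scaling: it was 12 without D3 replicate 3, 21 without D3 replicate 2, 41 without Untreated replicate 3, 2 when only these 2 groups were fitted, 40 when only the Untreated, D3 and D28 libraries were fitted and 10 after quantile normalization.

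In the libraries labelled D14 in U87 the same 82 values were all negative, but smaller. Only 5 members fell (1.02% of all genes tested were lower) and none rose (4.14%). The median was -0.21 against 0.15 for all genes. All 5 belonged to the small subunit, RPS27, RPS26, RPS3 and RPS14 among them. RPS27, a zinc-binding protein of the small subunit, was 740.1, 571 and 623 TPM in the Untreated libraries and 440.2 and 406 TPM at D14, a change of -0.60 ± 0.10 (SE, adjusted p = 0.01). Its D14 values lay below every Untreated value by more than 100 TPM. The count of 5 was 0 without either D14 library, 17 without Untreated replicate 2, 1 without Untreated replicate 3, and 3 without any of Untreated replicate 1, D3 replicates 2 and 3, D28 replicate 2 and D28WO replicates 1 and 3. It was 0 when only the 2 groups were fitted, 2 by median-ratio scaling and 1 by quantile normalization. Against D3, 2 members of U87 were higher in D14, RPL23 and RPL34 (1.47% of all genes were higher and 3.32% lower), and neither call held without either D3 library or D14 replicate 2. None fell, also at an unadjusted p under 0.05.

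At D28 of U87 the members had values near those at D3. 69 fell (6.55% of all genes) and none rose (17.2%), with a median of -0.35 against 0.19 for all genes and -0.14 for the other genes at 100 TPM or more. RPS27 had the lowest value: its D28 libraries held 410.2, 393 and 449 TPM, and the change was -0.62 ± 0.09 (SE, adjusted p = 0.00056). RPS26, a protein at the mRNA exit that is mutated in Diamond-Blackfan anaemia, was 322, 322 and 364 TPM in Untreated and 238, 211 and 235 TPM at D28, a change of -0.56 ± 0.07 (SE, adjusted p = 0.00032). RPL13 was 909, 780.2 and 1118 TPM in Untreated and 547, 628 and 721 TPM at D28, a change of -0.56 ± 0.13 (SE, adjusted p = 0.011). For all 3 genes no D28 library reached an Untreated one. RPS29, a zinc-binding protein of the small subunit, was the 1 member with a positive value, 0.32 ± 0.32 (SE, adjusted p = 0.51), and this rested on 1 library: D28 replicate 1 had 391 TPM, while the others had 125 and 126 and the Untreated libraries 161, 137 and 144. RPL39L changed least, from 56.6 to 63.7 TPM to 50.9 to 71.9 TPM. The count of 69 was 15 when only these 2 groups were fitted, 56 with the Untreated, D3 and D28 libraries alone and 10 after quantile normalization. Against D14, 1 U87 member, RPL34, was lower at D28 (1.12% of all genes were lower and 2.94% higher), a call lost without D14 replicate 2, and none was higher, also at an unadjusted p under 0.05.

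In the U87 libraries labelled D28WO, 75 members were lower than in Untreated (13.4% of all genes) and none higher (28.6%), the median was -0.45 against 0.25 for all genes, and 31 of the 32 small-subunit members were among the lower. RPS15, next to the decoding site, held 475, 473 and 574 TPM in Untreated and 287, 312 and 292 TPM in D28WO, a difference of -0.76 ± 0.09 (SE, adjusted p = 5e-05). RPL35, at the exit tunnel, held 640.0, 503 and 602 TPM in Untreated and 351, 371 and 331 TPM in D28WO, a difference of -0.72 ± 0.08 (SE, adjusted p = 3.5e-05). RPS28 and RPS26 had differences of -0.70 and -0.69. The Untreated and D28WO libraries were far apart for these genes, none overlapping. The 7 members not called were RPL13, RPL17, RPL28, RPL30, RPL39L, RPL9 and RPS29. RPL30 was level with Untreated, at 420.3 to 465 TPM there and 418 to 451 TPM in the libraries labelled D28WO, a change of -0.04 ± 0.06 (SE, adjusted p = 0.68). The count stayed between 66 and 79 when any 1 library was left out and was 35 after quantile normalization.

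Set directly against D28, D28WO of U87 had no member that was higher (9.9% of all genes were) and 9 that were lower, which is near the 8.44% of all genes. The 9 were RPL23A, RPL24, RPL35, RPL38, RPL7A, RPS15, RPS21, RPS24 and RPS28. RPS28 was lower in D28WO than at D28, by a log2 difference of -0.40 ± 0.08 (SE, adjusted p = 0.0068). At an unadjusted p under 0.05, limma gave 1 member higher, RPL17, and after quantile normalization 5 members were higher and 8 lower. Under median-ratio scaling 1 member was lower, and leaving out 1 library gave 4 to 12 that were lower, with 4 without D28WO replicate 3 and 5 without D28WO replicate 1 or D28 replicate 1. Of the 69 members that were lower at D28 in U87, 66 were also lower in the libraries labelled D28WO against Untreated. Both comparisons use the same Untreated libraries, and the overlap was not counted over all genes.

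In U251, 55 members fell at D3 and 2 rose, when 16% of the 23667 genes tested were lower and 24.9% were higher. The median was -0.28 against 0.13 for all genes and -0.04 for the 2984 other genes at 100 TPM or more, and the members spread more widely than in U87 (SD 0.23). The lowest was RPS28, at 441, 417 and 441 TPM in Untreated and 262, 259 and 218 TPM at D3, a change of -0.82 ± 0.10 (SE, adjusted p = 2.3e-05). RPL7A, which binds ribosomal RNA and hosts small nucleolar RNAs in its introns, went from 449, 478 and 497 to 257, 301 and 285 TPM, a change of -0.76 ± 0.06 (SE, adjusted p = 5.9e-07). RPL39 changed by -0.75 ± 0.06 (SE, adjusted p = 3.5e-07). No D3 library reached an Untreated one for any of these 3 genes. The 2 that rose were paralogs, RPS27L and RPL22L1, described below. RPL19, RPL28, RPS13, RPS12, RPL17 and RPS26 had values between 0.01 and 0.10 and were not called. After quantile normalization the counts were 34 lower and 7 higher.

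In the libraries labelled D14, 64 U251 members were lower than in Untreated (7.31% of all genes) and none higher (13.8%), also at an unadjusted p under 0.05, with a median of -0.26 against 0.10 for all genes. RPS27 had the lowest value, -0.56 ± 0.07 (SE, adjusted p = 0.0001), and RPL31 had -0.52. Against D3, 13 members were higher in D14 and 8 lower, shares near those of all genes (12.8% and 12.6%). Among the higher were RPL7A (0.43), RPS28 (0.38), RPL39 (0.32) and RPL23 (0.28), which were among the lowest members at D3, and among the lower were RPS12 (-0.33), RPL19 (-0.29) and RPL37 (-0.28). Both comparisons use the same D3 libraries, which by itself favours higher values in D14 for the lowest members at D3. When only the 2 groups were fitted, 7 were higher and 2 lower, and median-ratio scaling gave 3 lower. Without D3 replicate 2 the lower were 4, without D14 replicate 1 there were 8 higher and 5 lower, and without D14 replicate 3 there were 5 lower. The D14 count of 64 was 22 after quantile normalization.

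The members of U251 were lowest at D28. 75 fell (14.7% of all genes) and 1, RPS27L, rose (25.9%), the median was -0.43 against 0.16 for all genes and -0.07 for the other genes at 100 TPM or more. RPL23 was 727, 714 and 735 TPM in Untreated and 365, 390.1 and 444 TPM at D28, a change of -0.86 ± 0.09 (SE, adjusted p = 3.3e-06). RPL7 went from 689.8, 712 and 775 to 427, 404 and 415 TPM, a change of -0.80 ± 0.05 (SE, adjusted p = 2e-08), and RPS24, mutated in Diamond-Blackfan anaemia, from 722, 731 and 796 to 460.0, 461 and 462 TPM, a change of -0.70 ± 0.05 (SE, adjusted p = 1.8e-07). These libraries did not overlap, and the 3 D28 libraries of RPS24 differed by under 3 TPM. The 6 members not called were RPL22L1, RPL26L1, RPL28, RPL39L, RPS26 and RPS29. Against D14, 34 members were lower at D28 and none higher (9.48% and 11.3% of all genes), with 2 higher at an unadjusted p under 0.05, and RPL23 differed most (-0.42). The D28 count of 75 lay between 69 and 77 without any 1 library and was 54 after quantile normalization. With the Untreated, D3 and D28 libraries alone, 52 were lower and 2 higher at D3 and 72 lower and 2 higher at D28.

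In U251 the libraries labelled D28WO had higher values than those of D28. Against D28, 50 members were higher in D28WO and 1, RPL39L, was lower (10.3% and 18.8% of all genes), with a median of 0.21 against -0.12 for all genes and 0.06 for the other genes at 100 TPM or more. RPS19, the gene most often mutated in Diamond-Blackfan anaemia, held 328, 325 and 394 TPM at D28 and 500.2, 570.4 and 490.0 TPM in the libraries labelled D28WO, a difference of 0.58 ± 0.08 (SE, adjusted p = 0.00013). Its Untreated libraries held 563, 483 and 557 TPM, overlapping those of D28WO. RPS18, at the head of the small subunit, held 323, 343 and 324 TPM at D28 and 444, 499 and 487 TPM in D28WO, a difference of 0.53 ± 0.05 (SE, adjusted p = 5e-06), and RPL13 held 424, 436 and 481 TPM at D28 and 657, 631 and 638 TPM in D28WO, a difference of 0.52 ± 0.09 (SE, adjusted p = 0.00057). In all 3 genes D28WO was above every D28 library. The count of 50 was 40 to 50 without any 1 library and 30 after quantile normalization.

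The difference between D28WO and D28 was not shared by all members. Against Untreated, 38 members of D28WO in U251 were lower and 2 were higher, RPS27L among them (13.4% and 14.3% of all genes), with a median of -0.19 against 0.02 for all genes. Of the 75 members lower at D28, 32 were higher in the libraries labelled D28WO than at D28 and not called lower than Untreated. Another 17 were higher than at D28 and also lower than Untreated, 21 were lower than Untreated and not called above D28, and 5 were neither. The split was not made over all genes, and its comparisons share the D28 and Untreated libraries. It is therefore no result about the members. RPL23 belonged to the 21, with 377, 436 and 436 TPM in D28WO and a change of -0.80 ± 0.09 (SE, adjusted p = 1.1e-05) against Untreated. RPS28 held 266, 254 and 259.7 TPM there, a change of -0.73 ± 0.10 (SE, adjusted p = 9.9e-05), and RPL7A 294, 310.2 and 302 TPM, a change of -0.65 ± 0.06 (SE, adjusted p = 4.3e-06). For all 3 genes no D28WO library reached an Untreated one. After quantile normalization 30 were lower and 7 higher.

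**Figure D2:**
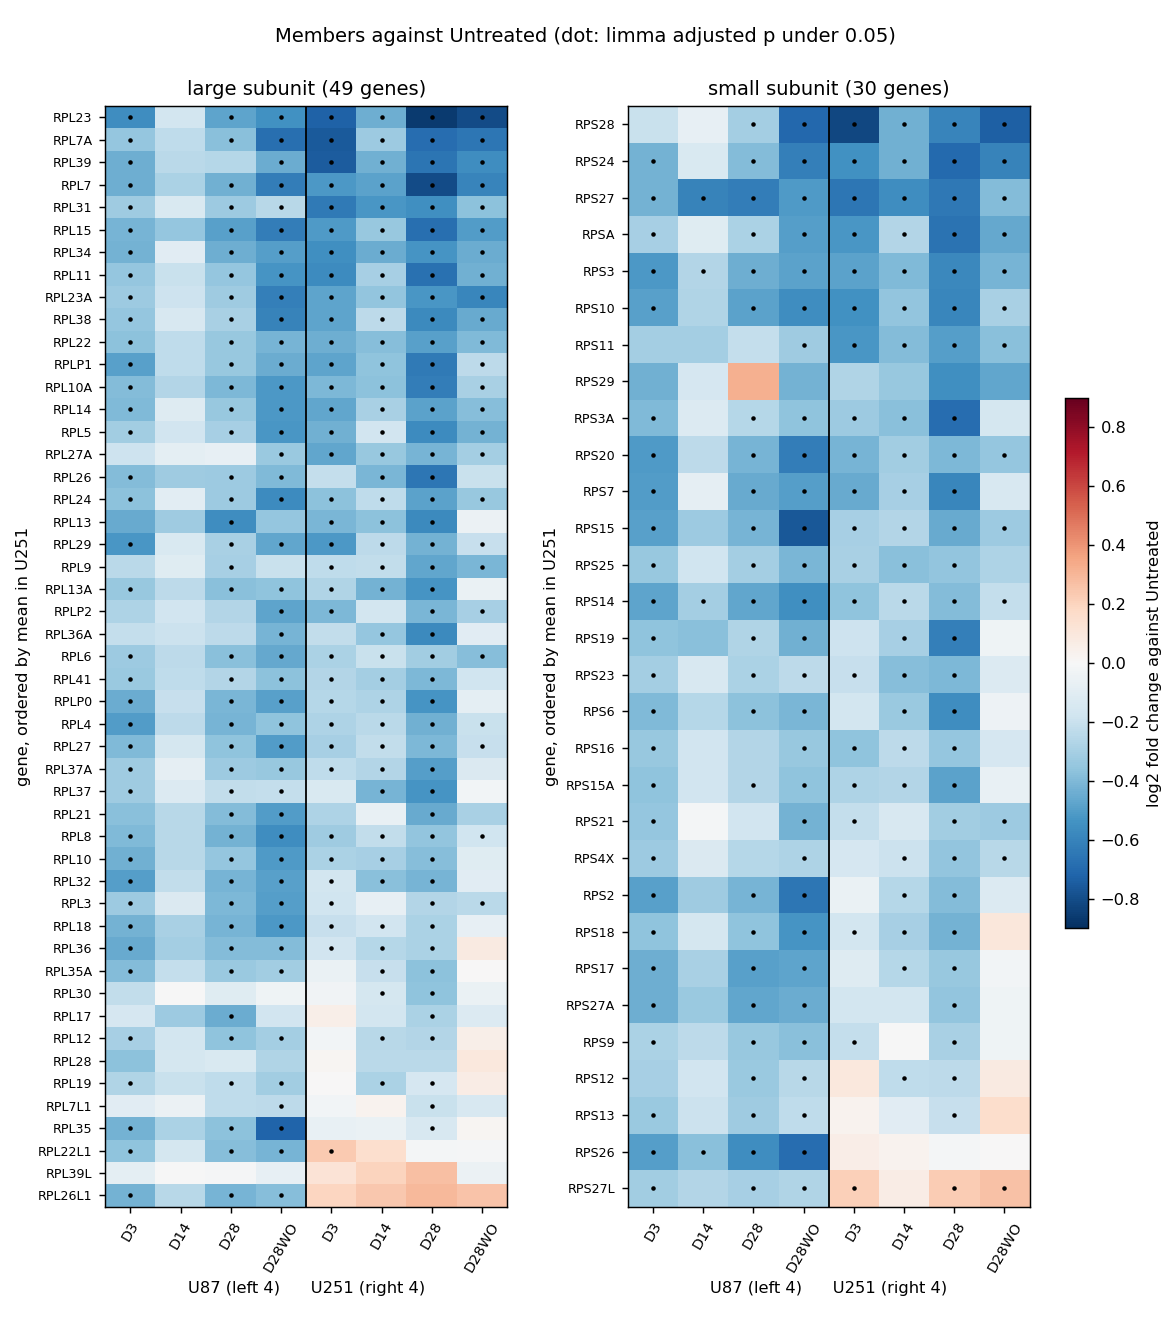
Log2 fold change against Untreated for 49 large-subunit members (left panel) and 30 small-subunit members (right panel) in D3, D14, D28 and D28WO of U87 (left 4 columns) and U251 (right 4 columns), blue for lower, red for higher, with a dot where the adjusted p by limma was under 0.05. U87 columns are mostly blue, with a pale D14 column and RPS29 in red at D28, whereas the U251 columns run from RPL23 at -0.86 at D28 to the paralog RPL26L1 at 0.29, and the D28WO column of U251 is paler than its D28 column.

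The subunits had similar medians. Those of the large and the small subunit were -0.37 and -0.39 at D3 of U87, -0.21 and -0.24 in D14, where 0 of 50 and 5 of 32 were called, -0.35 and -0.35 at D28 and -0.45 and -0.44 in the libraries labelled D28WO. In U251 they were -0.28 and -0.27 at D3, -0.26 and -0.28 in D14, -0.44 and -0.42 at D28 and -0.20 and -0.16 in D28WO. Of the members, 5 (6.1%) were called lower in all 4 groups of U87 (among them RPS14, RPS26, RPS27 and RPS3) and 34 (41.5%) in all 4 groups of U251, as were 0.454% and 3.75% of all genes tested. The 4 groups of a line share its Untreated libraries. By contrast, 4 of U87 (RPL28, RPL30, RPL39L and RPS29) and 7 of U251 (RPL22L1, RPL26L1, RPL28, RPL39L, RPS26, RPS27L and RPS29) were called lower in none, as were 84.8% and 76.2% of all genes.

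RPLP0, RPLP1 and RPLP2 form the stalk that recruits translation factors. RPLP0 was 751 to 852 TPM in Untreated U87, 578 to 642 at D28 and 559 to 596 in the libraries labelled D28WO, with changes of -0.41 ± 0.06 (SE, adjusted p = 0.00093) and -0.49 ± 0.06 (SE, adjusted p = 8.9e-05). U251 held 495 to 549 TPM of it in Untreated, 331 to 378 at D28 and 479 to 491 in D28WO, with a change of -0.53 ± 0.05 (SE, adjusted p = 2.8e-06) at D28 and of -0.09 ± 0.05 (SE, adjusted p = 0.26) in D28WO. No D28WO library reached an Untreated one in either line, and the difference was called in U87 and not in U251. RPLP1 changed by -0.64 at D28 and -0.24 in D28WO of U251, and RPLP2 by -0.41 and -0.30, and all 4 values were called.

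RPL5 and RPL11 carry the 5S ribosomal RNA and, when free of the ribosome, inhibit MDM2. RPL5 was 409 to 429.6 TPM in Untreated U251, 279.8 to 282 at D28 and 292 to 321 in the libraries labelled D28WO. Its change in D28WO against Untreated was -0.43 ± 0.04 (SE, adjusted p = 5e-06). RPL11 was 395 to 444, 246 to 276 and 297 to 325 TPM in the same groups, with a change of -0.43 ± 0.06 (SE, adjusted p = 0.00011) in D28WO against Untreated. For both, D28WO lay above D28 and below Untreated without overlap. In U87 their D28WO values were -0.52 and -0.53, both called. RPSA, the small-subunit protein that is also a laminin receptor, was 425 to 467 TPM in Untreated U251, 272 to 296 at D28 and 315 to 343 in D28WO, with a D28WO value of -0.46 ± 0.05 (SE, adjusted p = 1.5e-05) there and of -0.50 ± 0.07 (SE, adjusted p = 0.0002) in U87.

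RPS6, the substrate of the S6 kinases, went from 418 to 492 TPM to 307 to 321 TPM at D28 of U251, a change of -0.56 ± 0.08 (SE, adjusted p = 4.9e-05), and was 433 to 457 TPM in the libraries labelled D28WO. RPL13A, the GAIT component, went from 554 to 596 to 384 to 409 TPM, a change of -0.53 ± 0.05 (SE, adjusted p = 1.3e-06), and was 528 to 562 TPM in D28WO. RPS27A, which is made as a fusion with ubiquitin, went from 367 to 377 to 279.6 to 299 TPM, a change of -0.36 ± 0.06 (SE, adjusted p = 0.00039), with 359 to 360.2 TPM in D28WO. These 3 genes thus had D28WO values near Untreated in U251, with changes of -0.05, -0.06 and -0.04 that were not called. In D28WO of U87 they were -0.41, -0.36 and -0.45, all called.

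RPL10, at the peptidyl transferase centre, and RPS3 complete the fixed set. RPL10 was 444 to 446 TPM in Untreated U251 and 333 to 353 TPM at D28, a change of -0.38 ± 0.05 (SE, adjusted p = 2.5e-05). It was 405 to 425 TPM in the libraries labelled D28WO, which is below Untreated and not called, with a change of -0.11 ± 0.05 (SE, adjusted p = 0.12). RPS3 was lower in D28WO, with 688 to 808 TPM in Untreated and 559 to 578 TPM there, a change of -0.42 ± 0.06 (SE, adjusted p = 9e-05). RPS26 was level in U251, 147 to 175 TPM in Untreated and 155 to 163 TPM at D28, a change of -0.02 ± 0.08 (SE, adjusted p = 0.9), although it was among the lowest of U87. The difference between the lines was not tested, since the tables were normalized separately.

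Some ribosomal proteins have a close paralog encoded by another gene, and in U251 the paralogs stood apart from their parents. RPS27L, a p53 target, was 171, 177 and 185 TPM in Untreated U251, 210.0, 201 and 208 at D3, 210.4, 202 and 214 at D28 and 208, 211 and 223 in the libraries labelled D28WO. It rose by 0.22 ± 0.07 (SE, adjusted p = 0.021) at D3, by 0.23 ± 0.07 (SE, adjusted p = 0.015) at D28 and by 0.27 ± 0.07 (SE, adjusted p = 0.0095) in D28WO, without overlap with Untreated, while its parent RPS27 changed by -0.65, -0.65 and -0.39. Under median-ratio scaling none of the 3 calls of RPS27L held. The D3 call was also lost without Untreated replicate 1 or 2 or D3 replicate 1 or 3, and the D28 call without Untreated replicate 1 or D28 replicate 3. RPL22L1 rose at D3 by 0.24 ± 0.09 (SE, adjusted p = 0.049), a call lost in most alternatives. RPL26L1 was 64.0 to 73.6 TPM in Untreated and 82.2 to 87.9 TPM at D28 with 0.29 ± 0.11 (SE, adjusted p = 0.056), and RPL39L had 0.27 ± 0.11 (SE, adjusted p = 0.058), and neither was called. RPL7L1 fell at D28, by 0.20 ± 0.07 (SE, adjusted p = 0.039).

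A ratio within a library is not changed by a factor that scales the whole library, though quantile normalization can change it. RPS27L stood at 30.8%, 30.1% and 31.8% of the TPM of RPS27 in Untreated U251, and at 57.7%, 57.7% and 55.0% at D28. In U87 it was 37.9%, 45.5% and 51.6% in Untreated and 55.6%, 57.9% and 53.8% at D28. RPL26L1 went from 8.05% ± 0.834 (SD, n = 3) of RPL26 to 15.5% ± 1.46 (SD, n = 3) at D28 of U251, and in U87 from 17.3% ± 1.40 (SD, n = 3) to 16.2% ± 2.29 (SD, n = 3). The U251 groups did not overlap, whereas those of U87 did. RPL22L1 went from 14.3% to 15.7% of RPL22 to 22.1% to 25.7% at D3 of U251, and in U87 from 65.9% to 70.7% to 64.0% to 73.7%. RPL39L went from 8.78% to 11.8% of RPL39 to 18.2% to 20.4% at D28 of U251 and RPL7L1 from 14.5% to 18.2% of RPL7 to 23.3% to 24.8%. All 5 ratios were above every Untreated library in D14, D28 and D28WO of U251, and all but that of RPL26L1 at D3. With 3 libraries against 3 the exact two-sided permutation test cannot go below p = 0.1, the value these comparisons reached. The ratio also rises where the parent alone is lower. At D28 of U251 RPS27L was itself called higher, RPL7L1 was called lower, and RPL26L1 and RPL39L were positive and not called. RPL22L1 had a mean of 59.8 TPM there, against 60.5 in Untreated. How often other genes rise over these parents was not counted. In U87 the ratio of RPS27L was above every Untreated library in D14 and D28, that of RPL39L at D3 and in D28WO and that of RPL7L1 at D3, in D14 and in D28WO, while those of RPL22L1 and RPL26L1 overlapped Untreated in all 4 groups. The difference between the lines was not tested.

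**Figure D3:**
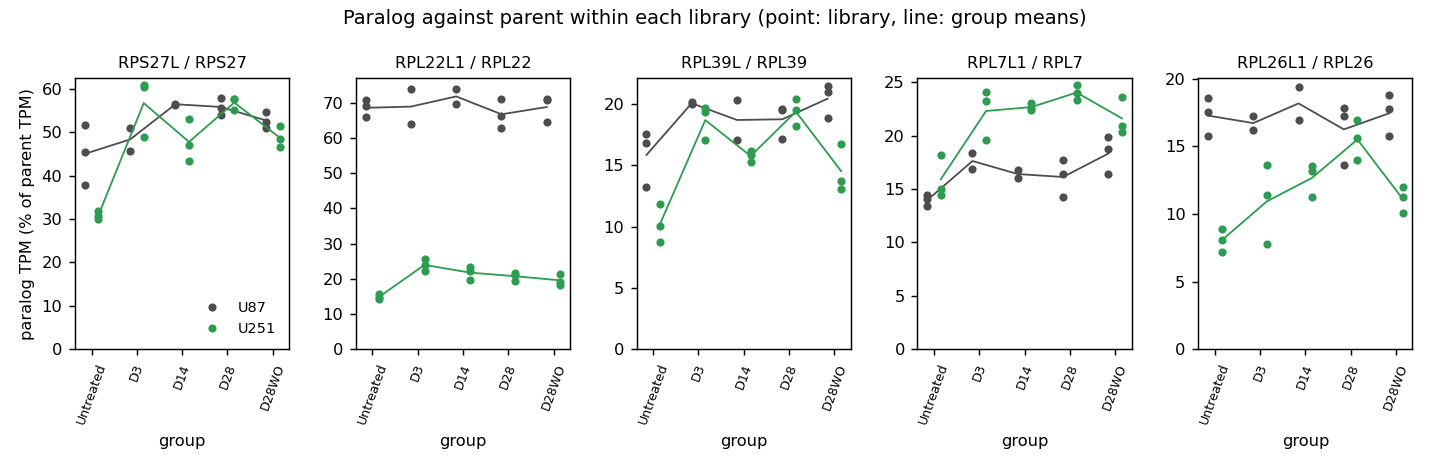
TPM of 5 paralogs as a percentage of their parent gene in the same library, by group, for U87 (grey) and U251 (green), 1 point per library, with lines through the group means. In U251 the RPS27L ratio goes from 30.1% to 31.8% in Untreated to 55.0% to 57.7% at D28, while the RPL22L1 ratio of U87 stays between 62.7% and 73.9% in all groups.

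The members with and without a pyrimidine run that began within 5 bases of the annotated start can be set side by side. In U87 the medians of the 54 with a run and the 12 without were -0.37 and -0.36 at D3, -0.34 and -0.37 at D28 and -0.45 and -0.41 in the libraries labelled D28WO. In U251 they were -0.28 and -0.19 at D3, -0.47 and -0.33 at D28 and -0.19 and -0.23 in D28WO. The 12 include RPS27L, RPL26L1, RPL7L1 and RPS26, of which RPS27L and RPL26L1 were positive in U251 at all 4 groups. No test was made of this split.

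Between the lines the order of the members correlated weakly at D3 and D28 and in D14. At D28, 78 of the 82 members were negative in both lines, yet Pearson's r of their log2 fold changes was 0.12 and Spearman's rho 0.085 over the 82 genes, which share libraries and are not independent. In D28WO r was 0.44 and rho 0.44, with 69 negative in both and 13 negative in U87 and positive in U251. At D3 r was 0.23 and in the libraries labelled D14 0.14. At D3 of U87 the spread among members was not much wider than the SE of single members, which by itself lowers a correlation. The D28 values include RPS29, whose U87 value rests on a single library. RPL23 was low in both lines in the libraries labelled D28WO (-0.54 and -0.80), as were RPS28 (-0.70 and -0.73) and RPL7A (-0.68 and -0.65).

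**Figure D4:**
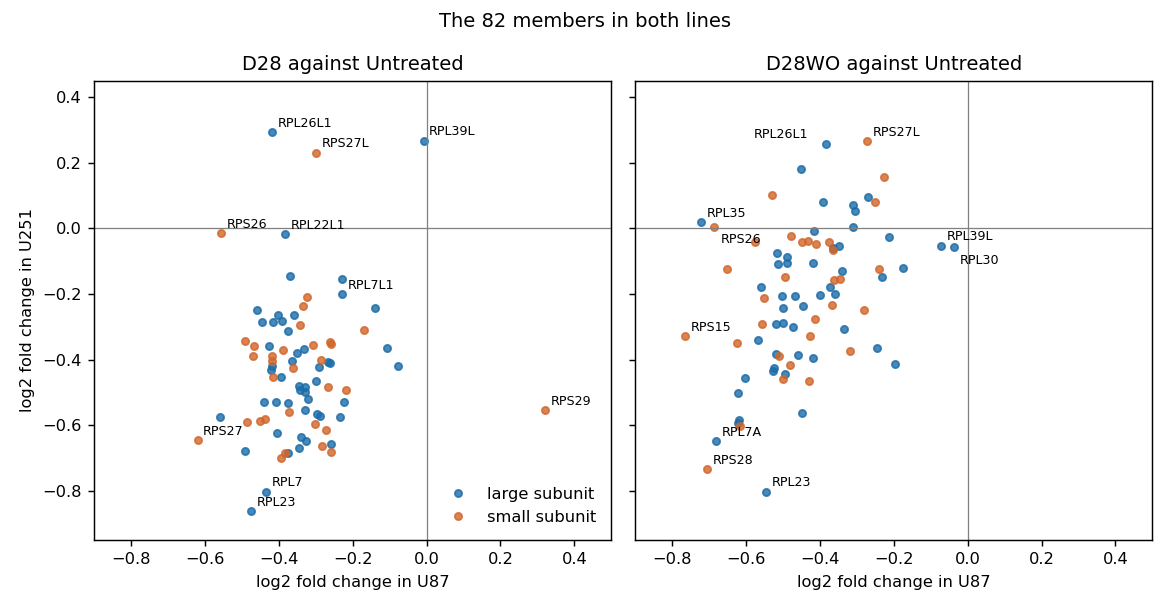
Log2 fold change against Untreated of the 82 members in U87 (horizontal axis) and U251 (vertical axis) at D28 (left) and in the libraries labelled D28WO (right), blue for the large and orange for the small subunit. At D28 most points lie in the lower left quadrant, with RPL26L1, RPS27L and RPL39L above 0 in U251 only and RPS29 above 0 in U87 only, and in D28WO 13 members lie above 0 in U251.

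Genes that work with the ribosome did not all follow it. Of 4 ribosomal or ribosome-bound proteins whose symbols fall outside the rule, among them FAU (a fusion with a ubiquitin-like sequence), RPL36AL and RACK1, 3 fell at D3 (75%, beside 4.28% of all genes) and at D28 of U87 (75%, beside 6.55%), 1 was lower in D14 (25%, beside 1.02%) and all 4 were lower in the libraries labelled D28WO (beside 13.4%), where FAU had -0.58 ± 0.09 (SE, adjusted p = 0.00029). In U251, 3 fell at D3 (75%, beside 16% of all genes) and 2 at D28 (50%, beside 14.7%), 1 was lower in D14 (25%, beside 7.31%), and in D28WO RACK1 alone was lower (25%, beside 13.4%), with -0.39 ± 0.08 (SE, adjusted p = 0.0019). None of the 4 was higher than in Untreated in any group of either line. Among 13 other TOP mRNAs, 7 were lower at D3 of U251, 7 in D14, 10 at D28 and 8 in D28WO, and none was higher, with medians of -0.23, -0.24, -0.36 and -0.21. These are shares of 53.8%, 53.8%, 76.9% and 61.5%, beside 16%, 7.31%, 14.7% and 13.4% of all genes. EEF1G, a subunit of elongation factor 1, had -0.67 ± 0.08 (SE, adjusted p = 3e-05) in D28WO, and PABPC1 had 0.12 ± 0.09 (SE, adjusted p = 0.37). In U87, 2 of the 13 fell at D3 (15.4%, beside 4.28% of all genes), none in D14, 4 at D28 (30.8%, beside 6.55%) and 7 in D28WO (53.8%, beside 13.4%), and none rose. The median in D28WO was -0.23, which was 0.06 with 3 higher and 2 lower after quantile normalization.

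More ribosome biogenesis factors rose than fell in U251. Of 23, 15 rose and 1 fell at D3 with a median of 0.38, 11 rose and none fell in D14, 10 rose and 1 fell at D28 with a median of 0.22, and 10 rose and 2 fell in the libraries labelled D28WO with a median of 0.04. The count that rose at D3 was 16 after quantile normalization and 13 under median-ratio scaling, and at D28 it was 12 and 6, with 3 lower under the latter. The shares of the 23 that rose were 65.2% at D3, 43.5% at D28 and 43.5% in D28WO, beside 24.9%, 25.9% and 14.3% of all genes. In D14 it was 47.8%, beside 13.8%. NOP2, a nucleolar methyltransferase of 28S ribosomal RNA, had 1.22 ± 0.11 (SE, adjusted p = 1.4e-06) at D3 and 0.57 ± 0.11 (SE, adjusted p = 0.0017) in D28WO. FBL, the methyltransferase of the nucleolus, was the 1 that fell at D3, with -0.27 ± 0.10 (SE, adjusted p = 0.044), and NPM1 and TSR1 were the 2 that fell in D28WO. In U87, none rose and 4 (17.4%) fell at D3, where 12.4% and 4.28% of all genes did, none was called in D14, none rose and 5 (21.7%) fell at D28, where 17.2% and 6.55% did, and 2 (8.7%) rose and 8 (34.8%) fell in D28WO, where 28.6% and 13.4% did. FBL was among the 8, with -0.52 ± 0.09 (SE, adjusted p = 0.00082). Of 14 genes of RNA polymerase I and its factors, 7 rose and none fell at D3 of U251 (median 0.35, 50% as against 24.9% of all genes), 6 were higher and none lower in D14 (42.9%, as against 13.8% higher of all genes), 7 rose and 3 fell at D28 (50% and 21.4%, as against 25.9% and 14.7%; the 3 were POLR1E, UBTF and TAF1B), and 4 were higher and 1 lower in D28WO (28.6% and 7.14%, as against 14.3% and 13.4%). In U87 none of the 14 was called at D3 (median 0.14), D14 or D28, and 4 were higher (28.6%, as of all genes) and 2 lower (14.3%, as against 13.4%) in D28WO. The 78 mitochondrial ribosomal proteins had medians of -0.16 at D3 and -0.25 in D28WO of U87 (36 were lower and 4, or 5.13%, higher in the latter, where 28.6% of all genes were higher), and of 0.06 in D28WO of U251. Of the 78, 12 (15.4%) rose and 14 (17.9%) fell at D3 of U251, where 24.9% and 16% of all genes did, and 20 (25.6%) rose and 9 (11.5%) fell in its D28WO libraries, where 14.3% and 13.4% did. At D28 of U251, 14 (17.9%) rose and 14 (17.9%) fell, where 25.9% and 14.7% of all genes did. In D14 of U251, 4 (5.13%) were higher and 3 (3.85%) lower, where 13.8% and 7.31% of all genes were. In U87, 13 (16.7%) fell at D3, none in D14 and 25 (32.1%) at D28, beside 4.28% and 6.55% of all genes at D3 and D28, and the 36 that fell in D28WO were 46.2%, beside 13.4%.

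The partners of RPL13A in the GAIT complex were EPRS1, SYNCRIP and GAPDH. GAPDH fell at D3, D28 and in the libraries labelled D28WO of U251, by 0.69 ± 0.10 (SE, adjusted p = 0.00015) in the last, and in D28WO of U87 by 0.84 ± 0.09 (SE, adjusted p = 3.4e-05). EPRS1 rose in D28WO of both lines, by 0.23 ± 0.08 (SE, adjusted p = 0.031) in U87 and by 0.31 ± 0.11 (SE, adjusted p = 0.049) in U251, and at D28 of U251 by 0.31 ± 0.11 (SE, adjusted p = 0.038). SYNCRIP fell in U87 at D3 by 0.28 ± 0.08 (SE, adjusted p = 0.027), at D28 by 0.28 ± 0.07 (SE, adjusted p = 0.011) and in D28WO by 0.46 ± 0.07 (SE, adjusted p = 0.00023), and in U251 at D28 by 0.26 ± 0.05 (SE, adjusted p = 0.0017).

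Ribosomal protein genes have many processed pseudogenes, and reads of near-identical copies cannot be placed with certainty, so the values of single members are uncertain to that extent. The tables list 1614 pseudogene symbols of the members. Their summed TPM was 0.716% of the parent's for the median member of U87 and 0.958% for that of U251. For 8 members of each line it was 10% or more: it was 103% for RPL36A in both lines, 40.3% and 59.5% for RPS26, 57.0% and 51.3% for RPL3, 43.2% and 42.0% for RPS23 and 42.4% and 25.1% for RPL23A. Adding the pseudogenes to their parents left the counts of lower members within 1.5 times of those above in all comparisons.

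**Figure D5:**
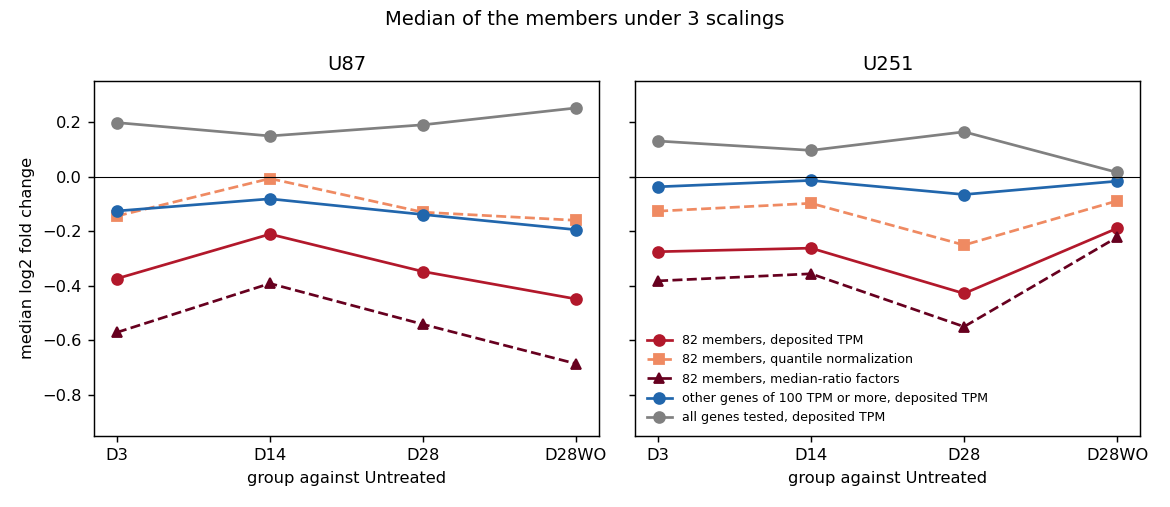
Median log2 fold change against Untreated of the 82 members with the deposited TPM (red circles), after quantile normalization (orange squares) and after median-ratio scaling (dark triangles), beside the medians of other genes with a mean of 100 TPM or more (blue) and of all genes tested (grey), for U87 (left) and U251 (right). In D28WO the member median of U87 is -0.45, -0.16 and -0.69 under the 3 scalings and that of U251 is -0.19, -0.09 and -0.22.

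The scaling sets how large the difference is. With the deposited TPM the median of all genes tested was above 0 in each U87 group, by 0.15 to 0.25, and the median of the members minus that of all genes was -0.57 at D3, -0.36 in the libraries labelled D14, -0.54 at D28 and -0.70 in the libraries labelled D28WO. In U251 the corresponding values were -0.41, -0.36, -0.59 and -0.20. After quantile normalization, which gives every library the same distribution, the member medians were -0.14, -0.01, -0.13 and -0.16 in U87 and -0.13, -0.10, -0.25 and -0.09 in U251. Under median-ratio scaling they were -0.57, -0.39, -0.54 and -0.69 in U87 and -0.38, -0.36, -0.55 and -0.22 in U251. The sign of the median was the same under all 3 scalings in every group, and at D14 of U87 quantile normalization left 38 members positive. Other genes of U87 at 100 TPM or more had negative medians as well, from -0.19 in D28WO to -0.08 at D14, and the part of this, and of the number of genes above 0 in U87 and in D14 and D28 of U251, in the result was not tested.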

How the data were processed

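RNA from U87 and U251 cells was sequenced by the authors, whose processing notes name FastQC, Trim Galore, STAR, featureCounts and edgeR with GRCh38. The deposited values were TPM per gene symbol, computed by the authors, 1 table per line, with no counts, so a library's depth is unknown and no counting interval can be given. The tables also hold 2 columns of per-sample values under a repeated name, which were not used.

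Libraries were grouped by their labels. Genes were kept where their mean over a line reached 0.5 TPM and tested on log2(TPM + 1) with limma 3.58.1 in R 4.3.3 (all 5 groups in 1 fit, trend, two-sided, Benjamini-Hochberg adjustment over all genes of a comparison, threshold 0.05). The study used voom on counts, which TPM do not allow. Tables and figures were made with Python 3.11.15 and pandas 2.3.3. The p-values set a difference of group means against the spread between libraries within groups. That spread is pooled over the 5 groups and drawn towards that of genes of like level. On simulated log2 values with 200 changed genes among 22918 of U87, 18.5% were found at D3 for a log2 change of 0.4 and 96.5% for a log2 change of 1, and at D28 43.5% and 98.5%. Among 23667 of U251 the shares were 63% and 99.5% at D3 and 64.5% and 99.5% at D28. The changed genes were drawn from those with a mean of 100 TPM or more. In the data a larger share of genes was called (12.4% higher and 4.28% lower at D3 of U87), which makes the Benjamini-Hochberg adjustment less strict. The simulated shares therefore do not describe the calls above.

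Named genes were, in each line and for each group against Untreated, the 3 members with the lowest and the 3 with the highest fold change, plus paralog pairs, stalk proteins, RPSA, RPL13A, RPL5, RPL11, RPS6, RPS27A, RPS19, RPS26, RPL10 and RPS3. Other members are named only where a count or list needed them, after their values were seen. Some genes that these rules name are not reported here. The members and all gene lists were chosen with earlier results of these data known. A TOP run was a C followed by 4 or more pyrimidines that began within 5 bases of the RefSeq start. The alternatives were another pseudocount (0.1), no filter or one at 1 TPM, median-ratio and quantile scaling, fits of 2 groups, a replicate block, array weights, a log2 fold change over 1, and each library left out. Members summed with their pseudogenes, and a fit of Untreated, D3 and D28 alone, were added after seeing the data.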

Additional observations from a re-analysis of the deposited data

Results flagged for a closer look

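In 8 cases a member had opposite values in the lines under the same comparison, every library of the group lying below every Untreated library in U87 and above every one in U251. The 8 are 2.53% of 316 cases (79 members in each of 4 groups), near the 2.24% for all 20473 genes tested in both lines, and a share near that of all genes is no result about the members. In the reverse direction, above in U87 and below in U251, there were 0 member cases, against 4.22% for all genes. No member lay above every Untreated library in any group of U87. The difference between the lines was not tested, since their tables were normalized separately. For RPS27L, the paralog of RPS27, the log2 fold change of D28 against Untreated was -0.30 in U87, where it had 259.8 to 321 TPM in Untreated and 228 to 242 TPM in D28, and 0.23 in U251, where it had 171 to 185 TPM in Untreated and 202 to 214 TPM in D28. For RPS27L the log2 fold change of D28WO against Untreated was -0.27 in U87, where it had 219 to 248 TPM in D28WO, and 0.27 in U251, where it had 208 to 223 TPM in D28WO. For RPS27L the log2 fold change of D3 against Untreated was -0.31 in U87, where it had 219 to 242 TPM in D3, and 0.22 in U251, where it had 201 to 210.0 TPM in D3. For RPL26L1, the paralog of RPL26, the log2 fold change of D28 against Untreated was -0.42 in U87, where it had 138 to 169 TPM in Untreated and 109 to 119 TPM in D28, and 0.29 in U251, where it had 64.0 to 73.6 TPM in Untreated and 82.2 to 87.9 TPM in D28. For RPL26L1 the log2 fold change of D28WO against Untreated was -0.38 in U87, where it had 107 to 126 TPM in D28WO, and 0.26 in U251, where it had 81.7 to 85.5 TPM in D28WO. For RPL22L1, the paralog of RPL22, the log2 fold change of D14 against Untreated was -0.16 in U87, where it had 215 to 236 TPM in Untreated and 203 TPM in both libraries of D14, and 0.15 in U251, where it had 58.8 to 61.6 TPM in Untreated and 64.0 to 69.7 TPM in D14. For RPL22L1 the log2 fold change of D3 against Untreated was -0.36 in U87, where it had 164 to 188 TPM in D3, and 0.24 in U251, where it had 65.5 to 76.4 TPM in D3. For RPS13, a protein of the small subunit, the log2 fold change of D28WO against Untreated was -0.23 in U87, where it had 352 to 407 TPM in Untreated and 295 to 346 TPM in D28WO, and 0.16 in U251, where it had 258 to 292 TPM in Untreated and 294 to 312 TPM in D28WO. All these values are small, and the groups hold 2 or 3 libraries, so that no library was tested for standing apart from its group. D14 and D28WO are the labels' names, which the IFN-γ targets follow in neither group of U87 and in part in U251.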

How the results depend on the processing

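The counts of members depended on the scaling, on which groups were fitted together and on single libraries. After quantile normalization, 10 members were lower at D3 of U87, 1 at D14, 10 at D28 and 35 in D28WO, with 1 higher at D28 and 1 in D28WO, 6 higher in D14 than D3, 2 lower at D28 than D14 and 5 higher in D28WO than D28. In U251 it gave 34 lower and 7 higher at D3, 22 lower at D14, 7 higher in D28WO, 2 higher at D28 than D14, and 2 lower and 30 higher in D28WO than D28. It also turned the sign of 6 named values: in U87 RPL3 at D3 (0.0063) and RPL26 (0.012) and RPL31 (0.046) in D28WO, and in U251 RPL5 (0.017) and RPL30 (0.022) at D14 and RPL35 at D28 (0.072). Median-ratio scaling gave 2 lower at D14 of U87, 0 higher in D14 than D3, 0 lower at D28 than D14 and 1 lower in D28WO than D28, and in U251 0 higher at D3, D28 and D28WO, 3 lower in D14 than D3 and 0 lower in D28WO than D28. With a log2 fold change over 1 required, 0 members passed in any comparison.

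When only the 2 groups compared were fitted, U87 had 2 lower at D3, 0 at D14 and 15 at D28, 0 higher in D14 than D3 and 0 lower at D28 than D14, and U251 had 3 higher at D28, 2 lower and 7 higher in D14 than D3, and 0 lower in D28WO than D28. Without a filter, 1 was lower at D14 and 1 higher in D14 than D3 of U87, and in U251 1 was higher at D3 and 0 lower in D28WO than D28. A pseudocount of 0.1 left 1 higher at D3 of U251. Array weights gave 5 higher in D14 than D3 and 1 higher in D28WO than D28 of U87, and 2 higher at D28 and 4 in D28WO of U251. The fit of Untreated, D3 and D28 alone gave 40 lower at D3 of U87 and 2 higher at D28 of U251. The cause of these differences was not tested.

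With the replicate number as a block, 2 were lower at D14 and 1 higher in D14 than D3 of U87, and 2 higher at D28 of U251, while 55, 64 and 74 were lower at D3, D28 and D28WO of U87. The deviations of same-numbered libraries correlated between -0.058 and 0.048, so that the numbers do not pair the libraries.

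Leaving out each library in turn, the lower members of U87 were 12 to 75 at D3, 0 to 17 at D14, 49 to 70 at D28 and 66 to 79 in D28WO, those higher in D14 than D3 0 to 4, those lower at D28 than D14 0 to 4, and in D28WO against D28 4 to 12 were lower and 0 to 1 higher. In U251, 48 to 62 were lower and 0 to 2 higher at D3, 49 to 67 and 0 to 1 at D14, 69 to 77 and 0 to 2 at D28, and 33 to 41 and 1 to 3 in D28WO. In D14 against D3, 4 to 11 were lower and 8 to 17 higher, at D28 against D14 23 to 37 and 0 to 1, and in D28WO against D28 0 to 1 and 40 to 50. Of the calls of named members, 0 to 25 in U87 and 1 to 8 in U251 were lost. The depth is unknown, so no limit from depth can be given.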
